A study of Mus musculus with 16 samples.

Results

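The 10 Kruppel-like factor genes Klf2, Klf3, Klf4, Klf5, Klf6, Klf7, Klf9, Klf10, Klf13 and Klf15 were examined, out of 21887 protein-coding genes, for both histone marks over each gene record and 10 kb either side. The members were named by symbol and all 10 matched a record. Muscle stem cells of C57BL/6 mice had been profiled in an activated state (ASC) and a quiescent state (QSC) by ChIPmentation, a form of ChIP-seq in which antibody-bound chromatin is tagged with sequencing adapters by a transposase. The 16 samples comprised 8 immunoprecipitated samples, with 2 replicates for each of the 2 marks in each state, and 8 input samples. No genotype, transgene, drug or age is given for either state in the labels, nor how the cells were isolated or activated, nor whether replicates came from separate mice. The authors deposited 1 narrow and 1 broad peak list per state and mark, pooled over replicates, so a difference between ASC and QSC has no replicate check and no test, and read depth is unknown. Satellite cell markers matched the label, since all 8 (Pax7, Myf5, Cdh15, Itga7, Vcam1, Sdc4, Calcr and Chodl) had H3K4me3 at the start in ASC and in QSC. None of the 6 immune markers had it in either state, while endothelial markers had it at 3 of 6 genes in ASC and 2 of 6 in QSC. Among pericyte and smooth muscle markers the counts were 2 of 5 in ASC and 3 of 5 in QSC, among fibro-adipogenic markers 1 of 5 and 0 of 5, and among Schwann markers 1 of 4 in each state. Of all protein-coding genes, 54.8% had H3K4me3 at the start in ASC and 52.1% in QSC. With so few markers, the endothelial and pericyte counts cannot be told apart from these shares. H3K27me3 lay at 1 of the 8 satellite cell starts in ASC (Calcr) and 0 in QSC, beside 30.4% and 25.1% of all genes. The part of other cell types in the values below was not tested.

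Kruppel-like factors are transcription factors that bind GC-rich and CACCC elements through zinc fingers at the end of the protein, and they are related to the Sp factors. Several are induced rapidly by growth factors, stress or hormones, and they act as activators or as repressors that recruit corepressors such as CtBP and Sin3A. H3K4me3 marks promoters that are active or poised, and H3K27me3 is the mark placed by Polycomb repressive complex 2. Peaks are given with the authors' fold enrichment over background, which describes a peak within its own list and gives no change between lists.

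RefSeq promoter sequences (GRCm38.p6, the assembly of mm10) were available for 8 of the 10 genes and not for Klf5 and Klf10. They span 250 bases before to 50 after a curated start. The promoters below are shown because of what the peaks did over them. That of Klf15 was the only one of the 8 under both marks, in ASC; that of Klf9 lay in the longest H3K4me3 domain of the family; those of Klf4 and Klf6 lay in or beside gaps between H3K4me3 narrow peaks. Capitals mark GC boxes (GGGCGG) and CACCC boxes (CACCC) on either strand, with touching matches run together.
Klf15, chr6:90462326-90462625, plus strand: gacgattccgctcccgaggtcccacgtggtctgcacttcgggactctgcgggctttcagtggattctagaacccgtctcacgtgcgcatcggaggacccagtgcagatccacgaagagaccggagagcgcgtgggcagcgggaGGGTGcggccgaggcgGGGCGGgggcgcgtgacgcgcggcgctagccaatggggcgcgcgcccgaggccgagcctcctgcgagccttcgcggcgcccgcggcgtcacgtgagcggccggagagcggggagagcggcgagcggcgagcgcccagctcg
Klf9, chr19:23140976-23141275, plus strand: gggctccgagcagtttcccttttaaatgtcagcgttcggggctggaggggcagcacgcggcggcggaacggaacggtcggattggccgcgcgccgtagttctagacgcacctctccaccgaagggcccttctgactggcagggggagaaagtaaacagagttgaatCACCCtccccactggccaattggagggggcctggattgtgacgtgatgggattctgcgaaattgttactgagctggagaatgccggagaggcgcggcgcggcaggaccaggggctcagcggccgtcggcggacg
Klf4, chr4:55532426-55532725, minus strand: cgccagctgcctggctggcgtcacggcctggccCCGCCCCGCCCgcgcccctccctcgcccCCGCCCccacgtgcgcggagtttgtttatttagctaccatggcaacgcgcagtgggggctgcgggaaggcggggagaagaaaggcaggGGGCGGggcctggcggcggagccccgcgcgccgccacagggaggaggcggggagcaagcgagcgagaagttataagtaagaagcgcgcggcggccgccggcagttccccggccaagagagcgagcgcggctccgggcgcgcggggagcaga
Klf6, chr13:5861239-5861538, plus strand: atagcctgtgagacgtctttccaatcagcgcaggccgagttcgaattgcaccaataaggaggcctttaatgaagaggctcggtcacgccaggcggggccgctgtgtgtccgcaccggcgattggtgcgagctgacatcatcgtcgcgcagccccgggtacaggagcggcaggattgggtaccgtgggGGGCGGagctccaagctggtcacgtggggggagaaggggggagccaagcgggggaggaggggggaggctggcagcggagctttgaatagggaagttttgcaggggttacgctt

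A GC box was present in 7 of the 8 Klf promoters, all but that of Klf9, against 35.7% of 32851 promoters in the table, and a CACCC box in 6 of 8, against 57.5%. Klf3 held most, with 6 GC boxes and 5 CACCC boxes. The E-box CACGTG was found 3 times in the Klf15 promoter and once each in those of Klf4 and Klf6, against 7.15% of all promoters with at least 1. A CCAAT box (CCAAT) was found in the promoters of Klf6, Klf9, Klf13 and Klf15, against 37.4% of all. Klf9 alone among them held an AP-1 site (TGANTCA; 7.81% of all), and no Klf promoter held TATAAA (13.6%) or the cAMP response element TGACGTCA (1.79%). These are letter matches on both strands, and each CACCC or GGGCGG match may overlap another. The 8 promoters were rich in G and C, between 58.3% at Klf7 and 76.7% at Klf3, with a median of 52.7% over all promoters.

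H3K4me3 was present at the start of all 10 Klf genes in ASC and all 10 in QSC, so none was marked in a single state. Over the records and flanks too, all 10 had at least 500 bp of H3K4me3 in each state, against 64.6% of all genes in ASC and 61.8% in QSC. A gene was called when a narrow peak touched the 1 kb either side of its start; this held for 54.8% of all protein-coding genes in ASC and 52.1% in QSC, with 51.3% called in both states, 3.44% in ASC only, 0.722% in QSC only and 44.5% in neither. The start was the 5′ end of the gene record, or either end for genes whose strand the promoter table did not give, Klf5 and Klf10 among them. The call at Klf15 was marginal by this measure, because its record begins 1533 bp before its curated start: the narrow peaks covered 49 bp of the window in ASC and 6 bp in QSC. The call at Klf15 was lost in both states with a window of 500 bp or an overlap of at least 200 bp, and was held at the curated start, where all 300 bp of the promoter lay under the peak in both states.

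**Figure D1:**
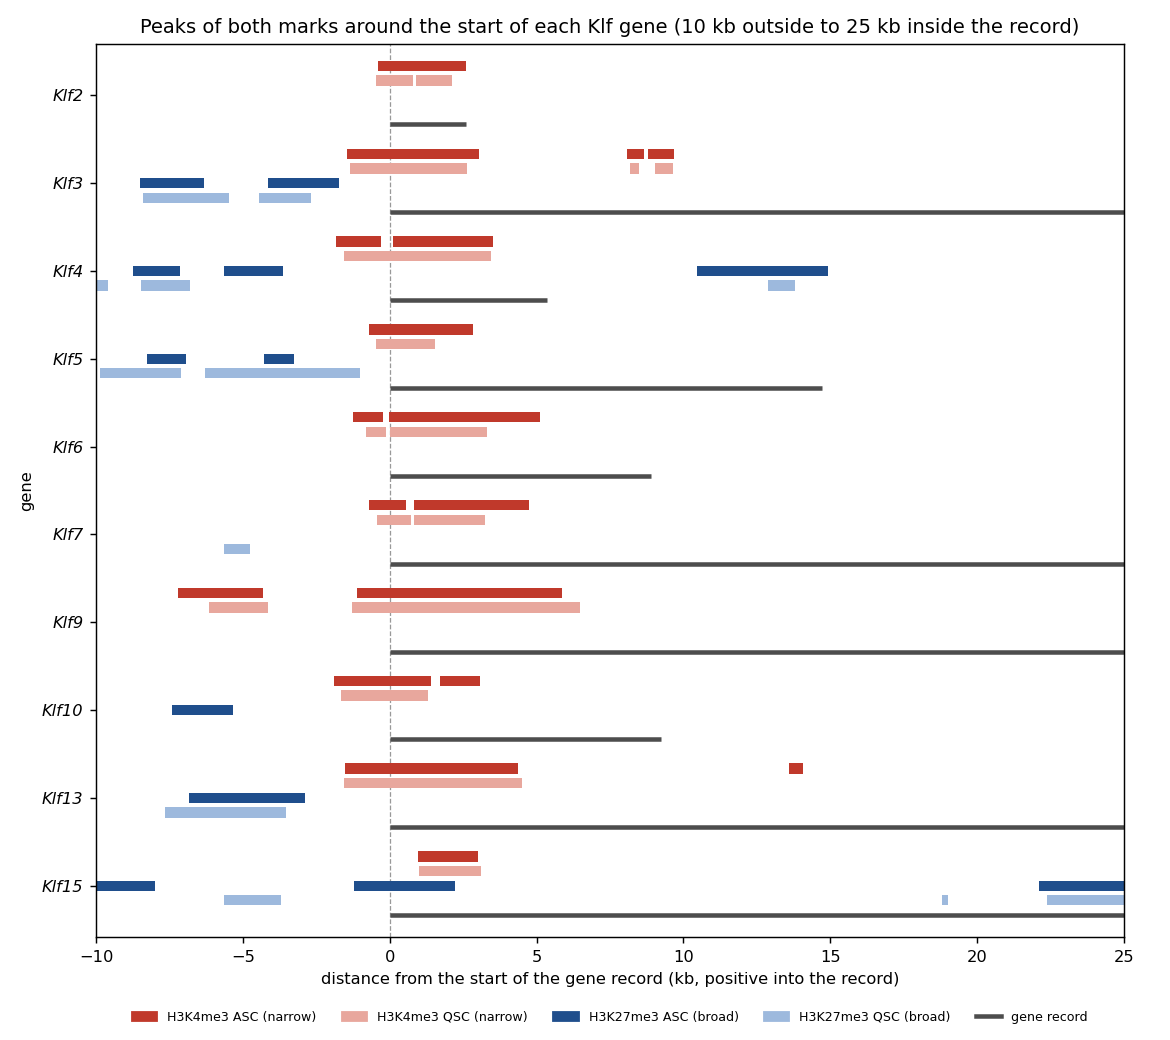
Peaks around each Klf gene: distance in kb from the start of the gene record (x axis, positive into the record, from 10 kb outside to 25 kb inside) for each gene (rows). Bars are H3K4me3 narrow peaks and H3K27me3 broad peaks in ASC and QSC, and the grey line is the gene record, drawn to the edge of the plot for longer records. H3K4me3 lies within 1 kb of every start in both states, and H3K27me3 crosses a start only at Klf15 in ASC.

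Klf genes carried long H3K4me3 domains, with a median of 5164.5 bp in ASC and 3824 bp in QSC. A domain was the run of narrow peaks at the start, merged over gaps of up to 1 kb. Over all marked genes the medians were 2653 bp in ASC and 1805 bp in QSC. Domains of at least 5 kb lay at 5 Klf genes in ASC (Klf4, Klf6, Klf7, Klf9 and Klf13) and at 3 in QSC (Klf4, Klf9 and Klf13), against 7.42% of marked genes in ASC and 2.43% in QSC. The strongest narrow peak of each gene had a fold between 14.4 and 38.7 in the ASC list, above the list's median for 9 of 10 genes. In the QSC list it was between 14.3 and 29.3, above the median for all 10. Those medians are over all single peaks, so they give no comparison with the strongest peak of other genes. The summit of the strongest peak lay inside the record at every gene, 468 to 2070 bp from the record's start in ASC and 255 to 2204 bp in QSC.

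**Figure D2:**
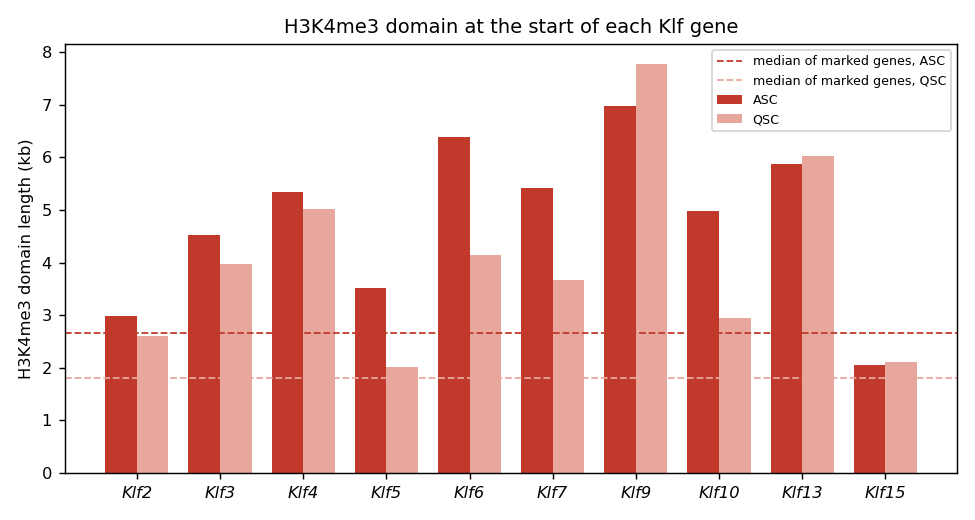
Length in kb of the H3K4me3 domain at the start of each Klf gene in ASC and QSC (1 pooled list each, so no error bars); dashed lines are the medians over all marked genes. Klf9 has the longest domain in both states, and Klf15 in ASC is the only value below its state's median.

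Klf9 and Klf13, both repressors that bind the Sin3A corepressor, had long domains that differed by less than 1.5 times between the states in the narrow lists. Klf9, which responds to glucocorticoids and thyroid hormone (gene record in mm10 on chromosome 19, 23141226 to 23168129, plus strand), had a domain of 6986 bp in ASC (chromosome 19, 23140111 to 23147096) and of 7768 bp in QSC (23139943 to 23147710). It was the longest of the family in both states, longer than at 98.1% of marked genes in ASC and 99.6% in QSC. Its peak had a fold of 30.5 in the ASC list, rank 2261 of 15869 peaks, and of 29.3 in the QSC list, rank 33 of 14354. ASC minus QSC, the domain differed by -614 bp inside the record and by -168 bp before it, a log2 ratio of -0.15. Both states also had a second peak 4 to 7 kb before Klf9, 2902 bp long with a fold of 5.96 in ASC and 2024 bp with 7.26 in QSC, which overlapped the long non-coding gene 2410080I02Rik. When peaks were merged over gaps of up to 3 kb, this peak joined the Klf9 domain in QSC, where the gap ran from position -4141 to -1283. In ASC the gap, from -4315 to -1115, was slightly past that limit and the peaks stayed apart. The log2 ratio under this setting was -0.86, and with the broad lists it was -0.49.

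Klf13, known for activating chemokine expression in T cells (chromosome 7, 63886351 to 63938915, minus strand), had 5872 bp in ASC and 6035 bp in QSC, a log2 ratio of -0.04, and -0.35 with the broad lists. Its folds were 22.9 in the ASC list and 19.4 in the QSC list. In ASC alone a small second peak of 467 bp, with a fold of 3.43, lay 13597 to 14063 bp into the record. The QSC broad list had a peak of fold 2.00 across that place.

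Klf15, a glucocorticoid-induced factor that controls amino acid and lipid metabolism in muscle (chromosome 6, 90461043 to 90491803, plus strand), had the shortest ASC domain, 2056 bp (chromosome 6, 90461995 to 90464050), against 2106 bp in QSC (90462038 to 90464143). The ASC length exceeded 30.4% of marked genes and the QSC length 63.8%. Its peak had a fold of 14.4 in the ASC list, above 45.0% of its peaks, and of 16.7 in the QSC list, above 86.3%. In the broad lists the H3K4me3 peak at Klf15 measured 2470 bp in ASC and 7215 bp in QSC, a log2 ratio of -1.55. The broad lists held 29297 peaks in ASC and 184538 in QSC, and the part of this in the length was not tested.

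Klf5, Klf6, Klf10 and Klf7 had longer domains in ASC. Klf5, a regulator of proliferation and of myoblast differentiation (chromosome 14, 99298691 to 99313412), had 3517 bp in ASC and 2014 bp in QSC, a ratio of 1.75. Klf10, first described as a gene induced early by transforming growth factor beta (chromosome 15, 38291464 to 38300711), had 4983 bp in ASC and 2952 bp in QSC, a ratio of 1.69. In ASC its domain held an added peak of 1343 bp with a fold of 11.6, 1727 to 3069 bp into the record. Klf6, an injury-response gene studied as a tumour suppressor (chromosome 13, 5861489 to 5870393, plus strand), had 6386 bp in ASC and 4140 bp in QSC, a ratio of 1.54, and the highest fold of the family in the ASC list, 38.7. Klf7, needed for the growth of sensory axons (chromosome 1, 64029448 to 64122345, minus strand), had 5427 bp in ASC and 3674 bp in QSC, a ratio of 1.48. Most of the added length lay inside the gene: 1274 of 1503 bp at Klf5, 1774 of 2031 bp at Klf10, 1814 of 2246 bp at Klf6 and 1482 of 1753 bp at Klf7. None of these 4 was at least 1.5 times longer by the broad lists. There the log2 ratios were 0.57 at Klf6 and 0.44 at Klf10, and -0.02 at Klf5 and -0.41 at Klf7, where the direction turned.

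The domains of Klf2, Klf3 and Klf4 were longer in ASC by less than 1.5 times. Klf2, which keeps T cells and endothelium quiescent (chromosome 8, 72319062 to 72321654, plus strand), had 2992 bp in ASC and 2608 bp in QSC. That ASC domain covered 99.9% of the 2593 bp record of Klf2, the shortest of the 10, and the QSC domain 82.0%. It was a single peak with a fold of 26.4 in ASC, and a pair of peaks with folds of 14.3 and 6.53, separated by 89 bp, in QSC. Without merging over gaps the log2 ratio of Klf2 was 1.23 in place of 0.20. Klf3, a repressor that works through CtBP (chromosome 5, 64803521 to 64832901, plus strand), had 4515 bp in ASC and 3974 bp in QSC. Both states had a further pair of weak peaks about 8 to 10 kb into the Klf3 record, with folds of 5.06 and 3.23 in ASC and of 3.11 and 3.15 in QSC. By the broad lists the Klf3 domain was 1.15 longer on the log2 scale in ASC, where a single peak of 12726 bp reached these inner peaks. Klf4, one of the pluripotency reprogramming factors (chromosome 4, 55527137 to 55532475, minus strand), had 5346 bp in ASC and 5011 bp in QSC; it was split into peaks with folds of 34.9 and 9.57 in ASC and was a single peak with a fold of 24.0, rank 213 of 14354, in QSC. Without merging over gaps the log2 ratio of Klf4 was -0.56 in place of 0.09, and that of Klf10 was 0.16 in place of 0.76.

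Across the 10 genes, 3 domains (Klf5, Klf6 and Klf10) were at least 1.5 times longer in ASC and none was at least 1.5 times shorter. Of all 11237 genes marked in both states, 46.2% were at least 1.5 times longer and 1.41% at least 1.5 times shorter. By any amount, 7 were longer and 3 (Klf9, Klf13 and Klf15) shorter in ASC, against 90.8% and 9.22% of all genes. With the broad lists the balance turned, with 4 longer (Klf2, Klf3, Klf6 and Klf10) and 6 shorter in ASC, Klf4 (-0.04), Klf5 and Klf7 among them. The median log2 ratio of ASC over QSC was 0.19 for the Klf genes and 0.55 for all genes marked in both states. Of the 10, 6 lay below the median of all genes. The ratio of Klf9 exceeded that of 5.32% of genes, Klf13 7.92%, Klf15 8.04%, Klf4 13.3%, Klf3 17.9% and Klf2 19.0%. The ratio of Klf7 exceeded that of 51.7% of genes, Klf6 57.8%, Klf10 70.1% and Klf5 73.9%. The ASC list had higher folds in general, with a median of 16.3 per peak against 10.4 in QSC; its part in the lengths was not tested.

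**Figure D3:**
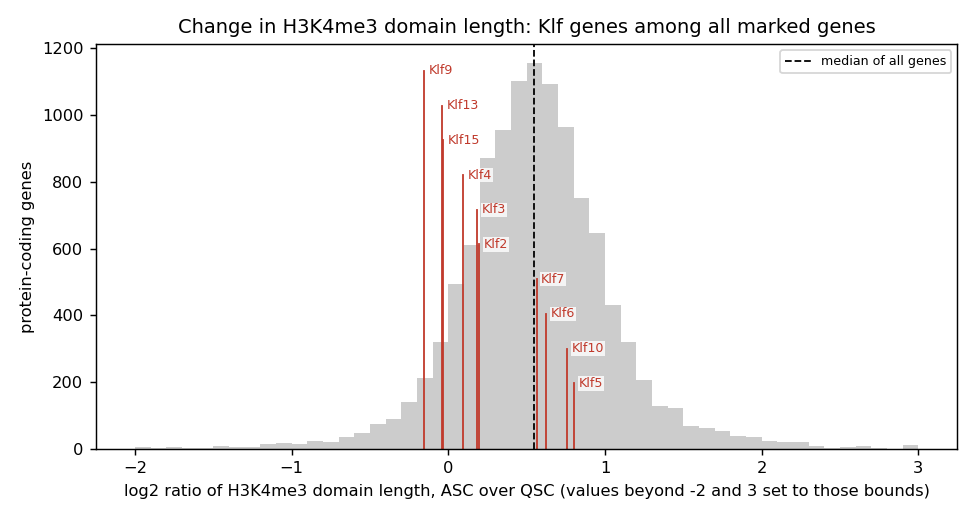
Histogram of the log2 ratio of H3K4me3 domain length, ASC over QSC (x axis), for all 11237 genes marked in both states (y axis, number of genes), with the 10 Klf genes as red lines whose heights only separate the labels. Klf9, Klf13, Klf15, Klf4, Klf3 and Klf2 lie left of the median of 0.55 and Klf7, Klf6, Klf10 and Klf5 right of it.

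Some domains were split at the promoter. At Klf4 a gap of 422 bp between narrow peaks in ASC reached from position -314 to position 107 relative to the start, so that 0 of the 300 bp of the promoter shown above lay under a narrow peak in ASC and all 300 in QSC. At Klf6 the gap was 190 bp in ASC and 154 bp in QSC, and 110 and 146 bp of its promoter were covered. At Klf7 it was 275 bp in ASC and 122 bp in QSC, and 177 and 178 bp of its promoter were covered. Such gaps were seen at 3 of the 8 Klf promoters in ASC and 2 of 8 in QSC. Among all promoters wholly inside a domain, 7.89% had one in ASC and 5.76% in QSC. In the broad lists a single H3K4me3 peak spanned the Klf4, Klf6 and Klf7 gaps in both states.

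Other annotated genes shared some of these domains. The start of the long non-coding gene Gm12506 lay in the domain of Klf4, and that of Gm35880 in the domain of Klf7, in both states and on the opposite strand to the Klf gene. The 3′ end of the predicted coding gene Gm38457 lay in the Klf3 domain in both states, and its 5′ end lay outside that domain. An end of Gm35248, whose strand was not given, lay in the Klf10 domain in ASC. From peak positions alone a domain that holds, or may hold, the starts of both genes cannot be assigned to either.

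H3K27me3 was called at few Klf starts. For this mark the call required broad peaks over 500 bp or more of the same window. Only Klf15 was called, in ASC and not in QSC, so that the counts were 1 of 10 in ASC and 0 of 10 in QSC, against 30.4% and 25.1% of all genes; the other 9 were called in neither state. Among all genes, 7.93% were called in ASC only, 2.60% in QSC only, 22.5% in both and 67.0% in neither. Genes with both marks at the start made up 10.2% of all genes in ASC and 5.62% in QSC. Klf15 in ASC was the only Klf gene among them. Where either end of a record could serve as the start, the marks could lie at different ends. All 10 Klf genes had H3K4me3 at the start. Of genes with that mark, 2228 of 11989 in ASC and 1229 of 11395 in QSC had H3K27me3 too. With 10 genes, counts of 1 and 0 are not far from these shares.

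At Klf15 an ASC broad peak of 3417 bp (chromosome 6, 90459834 to 90463250) covered the start of the record, the curated start and all 300 bp of the promoter shown above. Its fold was 2.38, above 94.8% of the peaks of its list, and its -log10 q was 1.69. A narrow peak of 689 bp with a fold of 3.68 and a -log10 q of 4.78 lay in it, from position -2353 to position -1665 relative to the curated start. The broad peak and the H3K4me3 peak shared 1256 bp. In QSC no H3K27me3 peak of either list lay in that place; the nearest broad peak ended at position -3697 relative to the record's start, with a fold of 1.90. The call in ASC was present at a q of at most 0.05, with equal numbers of peaks and, at the record's start, with narrow peaks. It was absent among peaks of fold 3 and above or of -log10 q 5 and above. The narrow H3K27me3 peak ended more than 1 kb before the curated start and did not reach the H3K4me3 peak. Both marks thus met there only by the broad H3K27me3 list.

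Over the records with their flanks, H3K27me3 lay in separate peaks, nearly all with a low -log10 q, like the broad lists as a whole. At least 500 bp lay under broad peaks at 6 Klf genes in ASC (Klf3, Klf4, Klf5, Klf10, Klf13 and Klf15) and at 6 in QSC (Klf3, Klf4, Klf5, Klf7, Klf13 and Klf15), against 69.2% of all genes in ASC and 69.6% in QSC. Klf2, Klf6 and Klf9 had no H3K27me3 peak of either list in either state. The Klf genes held 13 broad peaks in ASC with a median -log10 q of 0.282, and 14 in QSC with 0.534, beside medians of 0.378 and 0.420 over the whole lists, and only the ASC peak at the Klf15 start had a q of at most 0.05. The median covered length was 2200.5 bp in ASC and 1945.5 bp in QSC, against 5263 and 4615 bp over all genes.

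With flanks of 10 kb, Klf4 and Klf5 differed most between the states in this measure. At Klf4, 8052 bp lay under H3K27me3 in ASC, 31.8% of its record and flanks, against 3007 bp or 11.9% in QSC, all of it outside the record, with folds of 1.51 to 1.61 in ASC and 1.75 to 1.96 in QSC. At Klf5 the order was the opposite, with 2322 bp (6.69%) in ASC and 8031 bp (23.1%) in QSC. The QSC peak nearest to Klf5 measured 5278 bp with a fold of 2.11 and ended at position -998 relative to the record's start, so that only 3 bp fell within the window of its start; in it lay a narrow peak of 239 bp with a fold of 3.73. Klf15 had 10703 bp in ASC and 8599 bp in QSC, Klf3 4600 and 4725 bp, and Klf13 3943 and 4126 bp. Klf10 had 2079 bp in ASC and 0 bp in QSC, and Klf7 0 bp in ASC and 884 bp in QSC. All of these broad peaks other than that at the Klf15 start had a -log10 q under 1. With flanks of 5 kb the most different was Klf15, with 7943 bp in ASC and 4746 bp in QSC, ahead of Klf5 (1014 and 4003 bp) and Klf4 (1379 and 0 bp). With equal numbers of peaks Klf4 had 8052 bp in ASC and 400 bp in QSC. With flanks of 5 kb the order of the states turned at Klf3 (2406 bp in ASC and 1794 bp in QSC) and at Klf13 (2118 and 1478 bp).

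**Figure D4:**
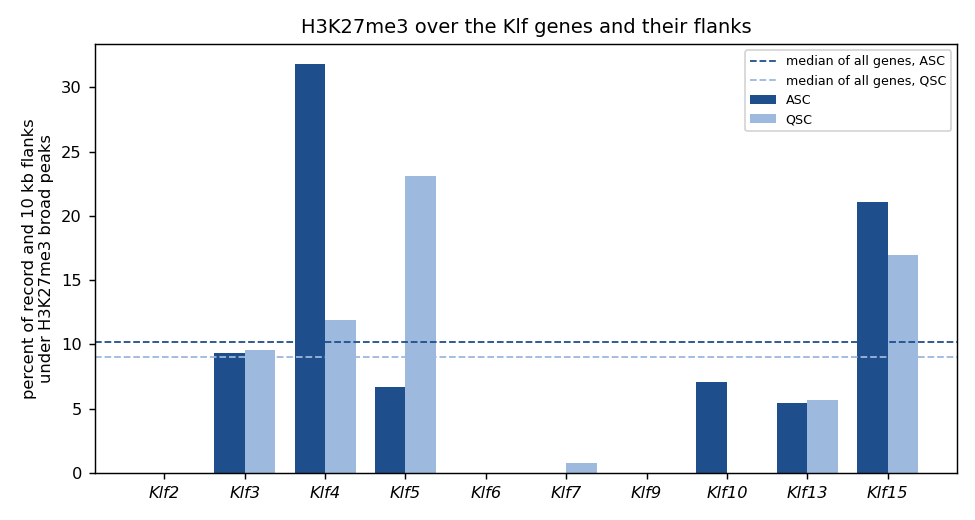
Percent of each Klf record and its 10 kb flanks under H3K27me3 broad peaks in ASC and QSC (1 pooled list each), with dashed lines at the medians over all genes, 10.2% in ASC and 9.01% in QSC. Klf2, Klf6 and Klf9 are at 0 in both states, Klf4 is higher in ASC and Klf5 lower in ASC.

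The other 16 genes of the Klf and Sp family were more mixed than the 10. H3K4me3 lay at 12 of the 16 starts in ASC and 9 in QSC, beside 54.8% and 52.1% of all genes. The count in QSC was close to that share. H3K27me3 lay at 9 in ASC and 8 in QSC, beside 30.4% and 25.1% of all genes. Klf14, Sp8 and Sp9 had H3K4me3 in ASC only, with domains of 748, 923 and 2056 bp, each under H3K27me3 in both states. Of all genes, 3.44% had H3K4me3 in ASC only. H3K27me3 covered 100% of the record and flanks of Klf14, Sp5 and Sp8, the last a regulator of limb outgrowth, in both states, and 88.0% in ASC and 89.2% in QSC at Sp9. Both marks were called at 7 of the 16 starts in ASC (Klf1, Klf12, Klf14, Sp5, Sp7, Sp8 and Sp9) and at 2 in QSC (Sp5 and Sp7). These calls do not require the marks to share bases. The shares of all genes were 10.2% and 5.62%. The erythroid factor Klf1 and Klf12 were called for H3K27me3 in ASC only and Klf17 in QSC only, beside 7.93% and 2.60% of all genes. For the 9 with H3K4me3 in each state, domain lengths had a median log2 ratio of 0.17. At curated starts the family counts were 13 and 10 for H3K4me3 and 8 and 8 for H3K27me3 in ASC and QSC, and Klf12 had neither mark there.

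**Figure D5:**
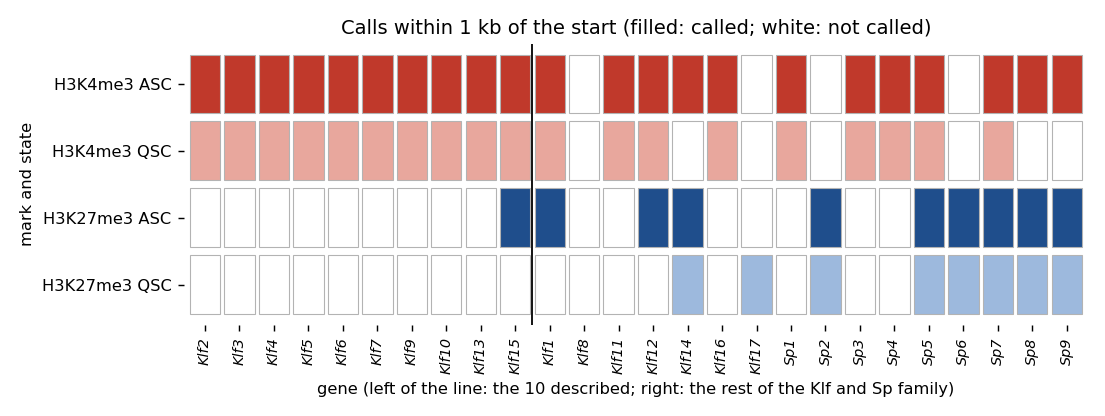
Calls of both marks within 1 kb of the start (rows, mark and state) for the 10 Klf genes described and the other 16 Klf and Sp genes (columns); filled squares are called. H3K4me3 fills all 10 columns on the left in both states, and H3K27me3 fills 1 of them, Klf15 in ASC, but 9 columns in ASC and 8 in QSC on the right.

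Genes with the most similar pattern were sought over 4 values per gene: log2 of 1 + H3K4me3 domain length and log2 of 1 + H3K27me3 bases within 5 kb of the start, each in ASC and QSC. The nearest to Klf9 were Zfp36 (domains of 7107 bp in ASC and 8488 bp in QSC, distance 0.130), Ehbp1l1 (7552 and 7289 bp, 0.145) and Trib1 (7768 and 7581 bp, 0.157), all with no H3K27me3 within 5 kb. The nearest to Klf15 were Dnmt3b (2438 and 2117 bp of H3K4me3, with 3311 bp of H3K27me3 in ASC and 1305 bp in QSC, distance 0.250), Ppp1r26 (0.293) and Plcd1 (0.308), beside 3417 and 1304 bp of H3K27me3 at Klf15 itself.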

How the data were processed

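Muscle stem cell chromatin from activated (ASC) and quiescent (QSC) cells was immunoprecipitated for H3K4me3 or H3K27me3, and the bound DNA was tagmented and sequenced, per the labels' protocols. Per the submitters' processing notes, the tools included Bowtie2 2.3.2, Picard 2.9.2 and MACS2 2.1.1 with mm10 as the build. Settings of these tools are not stated in the labels. The authors deposited 8 peak lists (narrow and broad for each state and mark), each named in the labels for both replicates, with a fold enrichment (ratio over background) and a -log10 q per peak. Peak numbers run past the number of peaks, so part of the first calls was removed: 62.0% and 63.2% of H3K4me3 narrow peaks and 49.9% and 71.3% of H3K27me3 broad peaks remained in ASC and QSC. Narrow peaks were used for H3K4me3 and broad peaks for H3K27me3. The intersections were computed with Python 3.11.15 and pandas 2.3.3. The H3K4me3 calls and domain lengths were tested on simulated single peaks at genes with a known strand. Merging over gaps, genes read at both ends, H3K27me3 calls and bases over records and flanks were not part of that test.

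Gene records, strand and promoters came from RefSeq (GRCm38.p6); the records hold no exons, so places inside a gene are not split into exon and intron. Of the 21887 genes, 4395 had no strand and were read at both ends. For Klf5 and Klf10 distances run from the end with the H3K4me3 domain, positive into the record. All members are named; other genes are named where a family or cofactor list member's call differs between states, for the most H3K27me3 in the family, for a shared domain, or as nearest patterns; Sp7, named for both marks, Sin3a and Ctbp1 were chosen after their values were seen. The members and lists were chosen with earlier results of these data known. There was no statistical test between the states, because each group is 1 pooled list.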

Additional observations from a re-analysis of the deposited data

How the results depend on the processing

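The median log2 ratio of H3K4me3 domain length lay between 0.17 and 0.19 under every setting tried except the broad lists, where it was -0.03 (all genes, 0.18). By those lists 1 Klf gene was at least 1.5 times longer in ASC (Klf3) and 1 at least 1.5 times shorter (Klf15). Log2 ratios turned at Klf5 (-0.0196), Klf7 (-0.41) and Klf4 (-0.04), so that 4 were longer and 6 shorter, in place of 7 and 3. With gaps of up to 3 kb, 1 was at least 1.5 times shorter (Klf9), in place of 0, and the balance stayed at 7 and 3. Without merging over gaps, 4 were at least 1.5 times longer (Klf2, Klf5, Klf6 and Klf7). Klf7 then had a log2 ratio of 0.70, and Klf10, at 0.16, was no longer among them. By any amount, 6 were then longer and 4 shorter, Klf4 (-0.56) having turned. The cause of these changes was not tested. H3K4me3 calls at Klf starts were 9 or 10 of 10 in each state under every setting. The H3K27me3 count in ASC, and in ASC only, was 0 among peaks of -log10 q 5 and above or of fold 3 and above, and 2 with a window of 2.5 kb (Klf3 and Klf15). That in QSC, and in QSC only, was 1 with that window or an overlap of at least 1 bp (Klf5 in each case). Median H3K27me3 bases per Klf gene were 0 in both states under those limits on peaks, with the narrow lists or, chosen after seeing the data, a q of at most 0.05. They were 507 bp in ASC and 115 bp in QSC with flanks of 5 kb, and 200 bp in QSC with equal numbers of peaks. Over all genes the H3K27me3 counts were 874 in ASC and 45 in QSC at -log10 q 5 and above, 1377 and 840 at fold 3 and above, and 2937 and 1718 with the narrow lists, against 6655 and 5488. Median H3K4me3 bases were 9009 in ASC and 11759 in QSC with the broad lists, the opposite order to the 5038 in ASC and 3769 in QSC of the narrow lists. Over all peaks, the H3K4me3 broad lists had a median -log10 q of 0.762 in ASC and 0 in QSC. They covered 88.8 Mb in ASC and 254.9 Mb in QSC. The part of such weak calls in the opposite order was not tested. Curated starts and both record ends, also chosen after seeing the data, changed no call at the Klf genes. They were tried only with narrow peaks for H3K4me3 and broad peaks for H3K27me3. No paired analysis was possible because each list pools both replicates; for the same reason no replicate could be left out. Depth is unknown.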

Other observations

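Calls at cofactors and upstream regulators of Kruppel-like factors mostly did not differ between the states, as over all genes. Of 23 such genes, 18 had H3K4me3 at the start in ASC and 18 in QSC, beside 54.8% and 52.1% of all genes. None had it in a single state, beside 3.44% of all genes in ASC only and 0.722% in QSC only. H3K27me3 lay at 2 in ASC and 4 in QSC, beside 30.4% and 25.1% of all genes. Fhl3, a cofactor of Klf3, and Map2k5, the kinase that activates the Erk5 pathway above Klf2 and Klf4, were called in QSC only. Of all genes, 2.60% had H3K27me3 in QSC only. The records of Fhl3 and Map2k5 begin away from a curated start. At curated starts 21 of the 23 had H3K4me3 in each state, Fhl3 and Map2k5 included, and neither had H3K27me3. H3K27me3 lay there at 1 of the 23 in ASC and 1 in QSC. The corepressors Sin3a and Ctbp1 had domains of 8213 and 3133 bp in ASC, against 6187 and 1553 bp in QSC. Over the 18 genes the median log2 ratio of domain length was 0.57, beside 0.55 over all genes and 0.19 for the Klf genes. In ASC, 8 of the 18 were at least 1.5 times longer, beside 46.2% of all genes.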
